A study of Mus musculus with 10 samples.

Results

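The genes described here are the solute carriers of J1 mouse embryonic stem cells: gene names made of Slc, a family number, the letter a and a member number, with a mean of at least 2 RPKM (reads scaled to gene length and library size) in the 2 WT input libraries. Of 341 gene names of that form, 119 met this level, among 9606 genes that met it and 30419 genes in all. Of the 119, 115 are carriers of 39 families, and 4 carry such a name without being carriers (Slc4a1ap, Slc7a6os, Slc9a3r1 and Slc9a3r2, proteins named after a carrier they bind or lie next to). Just inside the level stood Slc30a2 at 2.03, Slc37a1 at 2.05 and Slc30a7 at 2.09 RPKM, and just outside it Slc35a2 at 1.98 and Slc43a1 at 1.95 RPKM. The ion cotransporter homologue Slc12a9, at 1.18 RPKM, and the cystine and glutamate exchanger Slc7a11, at 0.0176 RPKM, also fell outside.

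Solute carriers move nutrients, ions, metals and metabolites across the plasma membrane and the membranes of mitochondria and other organelles. Stem cells that divide fast rely on carriers for glucose, lactate, amino acids and nucleosides, and the amino acids they bring in feed the mTORC1 kinase and the amino acid response. Many messenger RNAs carry N6-methyladenosine (m6A), written by the enzyme Mettl3 with Mettl14 and known to lie mostly near stop codons and in long exons, where it is best known for shortening the life of the RNA.

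RNA of Mettl3 KO cells and of Mettl3 WT cells, both J-1 stem cells grown without feeder cells, was fragmented and precipitated with an antibody against m6A. There were 2 KO input and 2 KO IP libraries, 2 WT input and 2 WT IP libraries, and 1 earlier input and IP pair of stem cells with no genotype in the labels, called the first pair here. The labels give neither the deleted part of Mettl3, the number of KO clones, nor whether replicates came from separate cultures, so p-values measure no more than how far these libraries lie apart, for which handling alone may account. Input levels are the authors' scaled coverage averaged over the exon windows of a gene, which is a level per length.

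Mettl3 itself had an input coverage of 3.14 and 3.38 in KO libraries, against 4.79 and 4.67 in WT libraries, a log2 change of -0.43 (limma adjusted p = 0.00259). It was therefore lower but not absent in the libraries labelled KO. Sequencing depth was not read from counts but estimated from window coverage, as its sum divided by its smallest value above 0. Relative to the first pair, this estimate was 0.516 and 0.284 for KO inputs and 0.438 and 0.457 for WT inputs. It was 0.0644 and 0.0606 for KO IPs and 0.159 and 0.0712 for WT IPs. All 8 stem cell markers (such as Pou5f1 and Nanog) were present, with a summed coverage of 2126 and 1994 in KO inputs and 2681 and 2759 in WT inputs, and 4 of them fell. Of 5 trophectoderm markers, 2 rose (Krt8 and Krt18), with a sum over all 5 of 20.8 and 21.8 in KO inputs against 8.67 and 8.18 in WT inputs. Krt8 and Krt18 made up most of that sum. Cdx2 and Elf5 stayed under a coverage of 1 in these 4 inputs. Eomes did not change, with 1.33 and 1.29 in KO inputs against 1.36 and 1.36 in WT inputs (limma adjusted p = 0.796). Of 4 neural markers, Nes rose and Sox1 fell, with sums of 24.0 and 24.4 in KO inputs and 21.5 and 22.2 in WT inputs. All 5 endoderm markers and 6 of 7 fibroblast markers stayed under a coverage of 1 in these 4 inputs. The part of these differences in the levels below was not tested, and in bulk RNA fewer cells of a type and less RNA per cell cannot be told apart.

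The most abundant carriers were those of mitochondria and of glucose. Slc25a5, an ADP and ATP exchanger, led with 386 RPKM over the WT inputs, followed by the glucose transporter Slc2a3 (192), the mitochondrial phosphate carrier Slc25a3 (161) and the second ADP and ATP exchanger Slc25a4 (94.5). The mitochondrial carrier Slc25a39 (60.4), the nucleoside transporter Slc29a1 (57.4) and the glutamine transporter Slc38a2 (55.9) made up the rest of the 7 carriers at 50 RPKM or more. The median was 5.54 RPKM, and 36 of the 119 reached 10. The level of Slc25a5 is uncertain: its coverage was 70.8 in the first input against 348 and 356 in the WT inputs, and how reads with several positions were counted is not known here.

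Between KO and WT inputs, 13 of the 119 genes rose, 20 fell and 86 did not pass the test (limma on log2(coverage + 1), Benjamini-Hochberg adjusted p under 0.05 over 11211 genes). Of all 11211 genes tested, 13.0% rose and 13.6% fell, and of the solute carriers 10.9% rose and 16.8% fell. Of the 9604 genes tested with a mean WT RPKM of at least 2, the level by which the carriers were selected, 12.4% rose and 14.1% fell. Selection by WT level can favour falls, and its part here was not tested. The median log2 change was -0.014 for the 119 genes and -0.0048 for all genes tested. Most changes were small: 29 of the 33 genes past the test lay within 0.5 on the log2 scale, and the smallest change called was 0.21. Both KO libraries stood above both WT libraries for 36 carriers (30.3%, against 31.7% of all genes) and below both for 50 (42.0%, against 34.0%). These 2 shares of all genes are over the 11211 tested, which were not selected by WT level. The counts depended on which libraries entered, among the carriers and among all genes, and 9 of the 33 calls held whichever of the 4 inputs was left out. The median log2 change was -0.024 without WT replicate 1 and -0.0038 without WT replicate 2 (-0.024 and 0.012 over all genes). It was -0.023 without KO replicate 1 and -0.012 without KO replicate 2 (-0.014 and 0.0043 over all genes). With no filter on low coverage 3 rises and 5 falls passed, against 372 and 390 among all 21812 genes then tested.

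**Figure D1:**
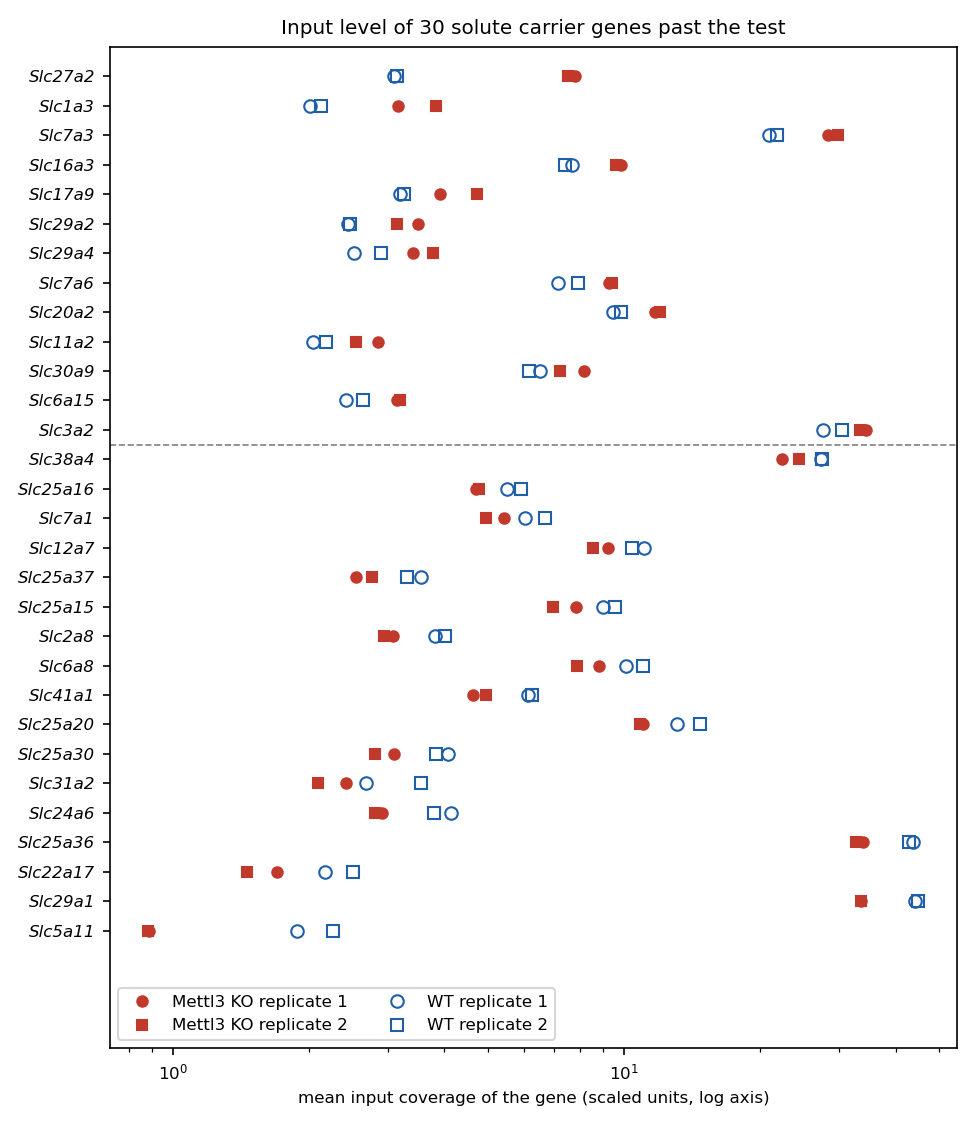
Mean input coverage of 30 of the 33 solute carrier genes past the test, in scaled units on a log axis, with filled red marks for the 2 KO inputs and open blue marks for the 2 WT inputs. Genes above the dashed line (13) were higher in KO and those below it (17) were lower, and for each of them the KO and WT libraries do not overlap.

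Among the 9 calls that held whichever library was left out were Slc27a2, Slc1a3, Slc7a3 and Slc16a3, which rose, and Slc5a11, Slc29a1 and Slc25a36, which fell. Slc27a2, an acyl-CoA synthetase and transporter of very long fatty acids, had a coverage of 7.77 and 7.52 in KO inputs and 3.10 and 3.14 in WT inputs, a log2 change of 1.07 ± 0.068 (SE) with a limma adjusted p of 1.41e-05. It was the largest change among the 119 genes, and the 2 libraries of each genotype lay close together. Slc1a3, a glutamate and aspartate transporter, had 3.16 and 3.83 in KO inputs against 2.01 and 2.13 in WT inputs (log2 change 0.55 ± 0.088, adjusted p = 0.00218). Its KO libraries were further apart than its WT libraries, but did not overlap them.

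Slc5a11, a sodium-coupled inositol cotransporter, had a coverage of 0.886 and 0.883 in KO inputs and 1.89 and 2.27 in WT inputs (log2 change -0.71 ± 0.088, limma adjusted p = 0.000535). It is a low-level gene whose KO and WT libraries did not overlap. Both KO inputs were under a coverage of 1, so it met the test's minimum of 1 through its WT inputs alone. Its fall is therefore not independent of that filter. The added 1 in log2(coverage + 1) understates its change: the ratio of KO to WT mean coverage was 0.426. At the high end, Slc29a1, which lets nucleosides equilibrate across the membrane, had 33.5 and 33.5 in KO inputs and 44.1 and 45.0 in WT inputs (log2 change -0.40 ± 0.061, adjusted p = 0.00154).

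By substrate, the 20 carriers of amino acids, peptides and related compounds split, with 5 that rose and 4 that fell. For this class and those below, the shares over all genes tested were 13.0% that rose and 13.6% that fell. Among genes tested with a mean WT RPKM of at least 2 they were 12.4% and 14.1%. Differences between classes were not tested. Slc7a3, a cationic amino acid transporter, had 28.4 and 29.8 in KO inputs against 20.9 and 21.9 in WT inputs (log2 change 0.43 ± 0.064, limma adjusted p = 0.00143), while Slc7a1, another carrier of arginine and lysine, had 5.41 and 4.95 in KO inputs against 6.05 and 6.67 in WT inputs (-0.25 ± 0.076, adjusted p = 0.0364). The pair therefore moved in opposite directions, with KO and WT libraries apart for each. Slc7a3 overlaps the expressed gene Snx12 in the RefSeq annotation, and whether coverage was kept per strand is not given in the sources used here. Slc3a2, the heavy chain that carries several Slc7 light chains to the membrane, had 34.3 and 33.3 in KO inputs and 27.6 and 30.5 in WT inputs (0.21 ± 0.069, adjusted p = 0.0444).

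Of the light chains that pair with Slc3a2, Slc7a6 rose (log2 change 0.28), while the leucine carrier Slc7a5 (0.096, adjusted p = 0.408) and Slc7a7 (0.12, adjusted p = 0.205) did not pass in limma. Slc6a15, a carrier of branched-chain amino acids and proline, rose by 0.24. Slc6a8, the creatine transporter, fell by 0.31 and Slc38a4, a carrier of small neutral amino acids, fell by 0.22. The glutamine carriers Slc1a5 and Slc38a2 had log2 changes of 0.021 (adjusted p = 0.836) and -0.070 (adjusted p = 0.457), with 21.1 and 22.1 in KO inputs against 20.8 and 21.7 in WT inputs for Slc1a5, and 45.1 and 48.5 in KO inputs against 48.9 and 49.5 in WT inputs for Slc38a2.

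Of 28 mitochondrial carriers of the Slc25 family, 7 fell and 0 rose in limma, where 8 were lower and 3 higher at an unadjusted p under 0.05. Over all genes tested, 13.6% fell and 13.0% rose. Slc25a36, a carrier of pyrimidine nucleotides, had 33.9 and 32.7 in KO inputs and 43.6 and 42.9 in WT inputs (log2 change -0.37 ± 0.062, adjusted p = 0.00259). Its libraries of a genotype differed by far less than the genotypes did. Slc25a30 (-0.33), the carnitine and acylcarnitine carrier Slc25a20 (-0.32), the ornithine carrier Slc25a15 (-0.29), the iron importer Slc25a37 (-0.28) and Slc25a16 (-0.23) were also among the 7.

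None of the mitochondrial carriers at 50 RPKM or more was among them, while Slc25a36, which fell, stood at 46.6 RPKM. Slc25a4 had 84.2 and 90.2 in KO inputs and 85.3 and 83.0 in WT inputs, and its libraries overlapped (log2 change 0.050, limma adjusted p = 0.615). Slc25a5 had 377 and 395 in KO inputs and 348 and 356 in WT inputs (0.13, adjusted p = 0.219). Slc25a3 had 165 and 152 in KO inputs and 134 and 142 in WT inputs (0.20, limma adjusted p = 0.0694). Slc25a39 had 41.2 and 37.3 in KO inputs and 44.5 and 46.3 in WT inputs (-0.21, limma adjusted p = 0.0524). KO libraries lay above WT libraries for Slc25a5 and Slc25a3 and below them for Slc25a39, but none of them passed. The median log2 change of the 28 genes was -0.024, so that most of the family lay near the middle of all genes.

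**Figure D2:**
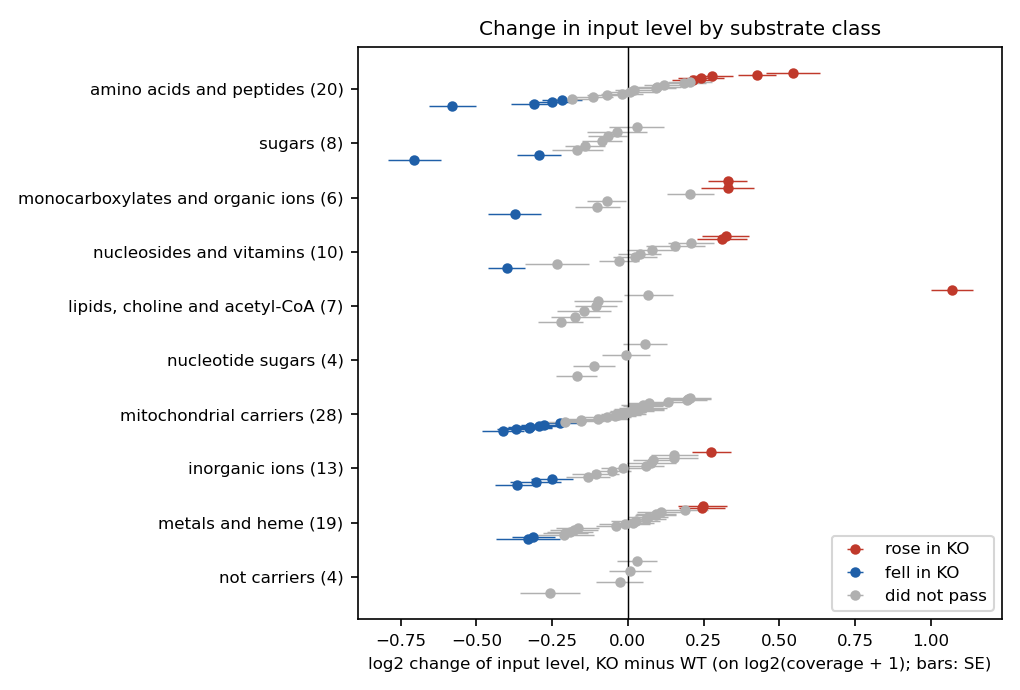
Log2 change of input level, KO minus WT, of each of the 119 genes by substrate class, with the standard error of the limma fit as bars and the number of genes of the class in parentheses. Red points (13) rose, blue points (20) fell and grey points (86) did not pass. Slc27a2 at 1.07 stands apart on the right, and the mitochondrial carriers hold 7 blue and 0 red points. Over all genes tested, 13.0% rose and 13.6% fell.

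Sugar carriers held 2 falls among 8 genes, Slc5a11 and the intracellular glucose transporter Slc2a8 (-0.29), and 0 rises in limma, also at an unadjusted p under 0.05. The glucose transporters of the plasma membrane did not pass in limma: Slc2a1 had 28.0 and 28.2 in KO inputs and 30.4 and 28.6 in WT inputs (log2 change -0.067, adjusted p = 0.472), and Slc2a3 had 164 and 160 in KO inputs and 172 and 173 in WT inputs (-0.085, adjusted p = 0.378). In both, KO libraries lay slightly below WT libraries. The lactate exporter Slc16a3 had 9.84 and 9.59 in KO inputs and 7.67 and 7.39 in WT inputs (0.33 ± 0.065, adjusted p = 0.00604), while the lactate and pyruvate carrier Slc16a1, at 28.8 and 28.3 in KO inputs and 29.0 and 31.1 in WT inputs, did not pass (-0.069, adjusted p = 0.461). Slc16a3 overlaps the expressed gene Csnk1d.

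The class of Slc16a3, monocarboxylates and organic ions, had 2 rises and 1 fall among 6 genes. The second rise was Slc17a9, which loads nucleotides into vesicles (0.33), and the fall was Slc22a17, a lipocalin receptor (-0.37). Among 10 carriers of nucleosides and vitamins, Slc29a2 (0.32) and the monoamine transporter Slc29a4 (0.31) rose, while their relative Slc29a1 fell. Of 7 genes for lipids, choline and acetyl-CoA, Slc27a2 rose; the choline transporter Slc44a1 had a mean of 5.07 in KO inputs against 6.09 in WT inputs and did not pass (-0.22, limma adjusted p = 0.051).

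Among 13 carriers of inorganic ions, the phosphate importer Slc20a2 rose (0.28), while the mitochondrial sodium and calcium exchanger Slc24a6 (now Slc8b1; -0.37) and the potassium and chloride cotransporter Slc12a7 (-0.25) were among the 3 that fell. Of 19 carriers of metals and heme, the iron importer Slc11a2 (0.25) and the zinc transporter family member Slc30a9 (0.24) rose, and the magnesium transporter Slc41a1 (-0.31) and the copper transporter family member Slc31a2 (-0.33) fell. None of the 4 nucleotide sugar carriers and none of the 4 genes that are not carriers passed in limma; their log2 changes ran between -0.17 and 0.057, and between -0.26 and 0.030, and in each of these classes 1 gene was lower and 0 were higher at an unadjusted p under 0.05.

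Other transport genes were counted in 3 lists drawn up with earlier results of these data known, against 13.0% of all genes tested that rose and 13.6% that fell. Of 31 tested genes of carrier type without the Slc prefix, 2 rose (Mtch1, 0.43, and Sfxn1, 0.24) and 6 fell, with the mitochondrial pyruvate carrier subunit Mpc1 (-0.41) and the phosphate exporter Xpr1 (-0.36) in front. Of 29 ATPases, 2 rose and 8 fell, among them the calcium pumps Atp2a3 (-0.76) and Atp2a2 (-0.57). Of 17 ABC transporters, 2 rose, among them the drug exporter Abcg2 (0.37), and 3 fell, among them the sterol exporter Abcg1 (-0.54). Median log2 changes were -0.037, -0.057 and -0.067 in these 3 lists.

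Of 22 genes of the amino acid response and mTORC1 sensing, 9 rose and 3 fell, in a list drawn up with earlier results of these data known, where 13.0% of all genes tested rose and 13.6% fell. The list's median log2 change was 0.13, against -0.0048 over all genes. The transcription factors Cebpb (0.55) and Atf4 (0.22), the mTORC1 regulator Ddit4 (0.50), the GTPase Rragd (0.54) and the translation repressor Eif4ebp1 (0.40) were among the 9, and the sensor Sesn1 (-0.49), the kinase Mtor (-0.26) and the GTPase Rragc (-0.29) made up the 3. The motif bound in amino acid response elements, TGATGNAA, was looked for on both strands from 250 bases before to 50 after each start site in RefSeq (GRCm38.p6), and stood in 3.97% of 32851 promoter windows, in 4 of 121 windows (3.31%) of the 86 carriers with a window, and in 3 of 20 windows of 12 genes for amino acids. Those 3 windows, shown because they belong to carriers of the class in which most rises were counted, gave the stretches below, with the motif or its reverse complement in capitals.
Slc1a4, chr11:20332710-20332742, minus strand: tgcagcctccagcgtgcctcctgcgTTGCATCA
Slc7a7, chr14:54418053-54418110, minus strand: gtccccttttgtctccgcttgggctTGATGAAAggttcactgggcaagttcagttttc
Slc7a7, other start, chr14:54417913-54417952, minus strand: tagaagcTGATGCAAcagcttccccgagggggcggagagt

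The neutral amino acid carrier Slc1a4 had 4.99 and 5.25 in KO inputs and 4.46 and 4.30 in WT inputs (log2 change 0.19, limma adjusted p = 0.0768), and Slc7a7 had 11.9 and 12.6 in KO inputs and 11.1 and 11.3 in WT inputs. Both KO libraries were above both WT libraries for each, but neither gene passed the test. The windows of Slc1a3, Slc3a2 and Slc7a6, which did rise, hold no such letters; Slc7a3 and Slc6a15 were not searched.

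Regions of m6A were mapped in the first IP, a library on neither side of the genotype contrast. The authors' winscore is the log2 of the IP coverage of a window over the median of its gene, relative to the same quotient in the input, and a region is a run of at least 2 windows with a winscore of at least 2. Of the 119 genes, 86 (72.3%) held 145 regions, against 5184 of the 9606 genes of that level (54.0%); the map comes from 1 library and has no test. Regions were found in 14 of 20 carriers of amino acids, 11 of 13 of inorganic ions, 14 of 19 of metals and 9 of 10 of nucleosides and vitamins. They were found in 7 of 8 carriers of sugars, 6 of 7 of lipids, choline and acetyl-CoA and 5 of 6 of monocarboxylates and organic ions. Among mitochondrial carriers 16 of 28 held a region, among nucleotide sugar carriers 2 of 4 and among genes that are not carriers 2 of 4. Differences between classes were not tested.

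Solute carrier genes were longer than other genes, with a median of 70 windows against 57. Among genes of 41 to 60 windows 65.6% of carriers held a region, against 55.0% of all genes, and among those of 81 to 120 windows 91.2% did, against 74.3%. In the longest genes, of 121 windows or more, 6 of 9 carriers (66.7%) held a region against 83.1% of all genes. The share was thus higher than among all genes in each length class but the longest, which holds 9 carriers.

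Where the strand of the gene could be taken from RefSeq, 70 of 97 regions (72.2%) lay in or reached the last exon, against 67.9% of the regions of all genes. The last exon held 26.1% of the windows of these carriers and 21.5% of those of all genes. A further 11 regions lay in the first exon and 16 in an internal exon. Averaged over 10 equal bins from the 5′ to the 3′ end of the gene, the winscore of the carriers reached 1.02 and 1.09 in KO IPs and 1.06 and 1.31 in WT IPs in bin 9, against 0.707 and 0.521 in KO IPs and 0.596 and 0.671 in WT IPs over all genes. In bin 1 it was 1.51 and 1.26 in KO IPs and 0.760 and 1.17 in WT IPs, with the KO libraries on top, as over all genes (1.50 and 1.28 in KO IPs, 0.680 and 1.08 in WT IPs).

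**Figure D3:**
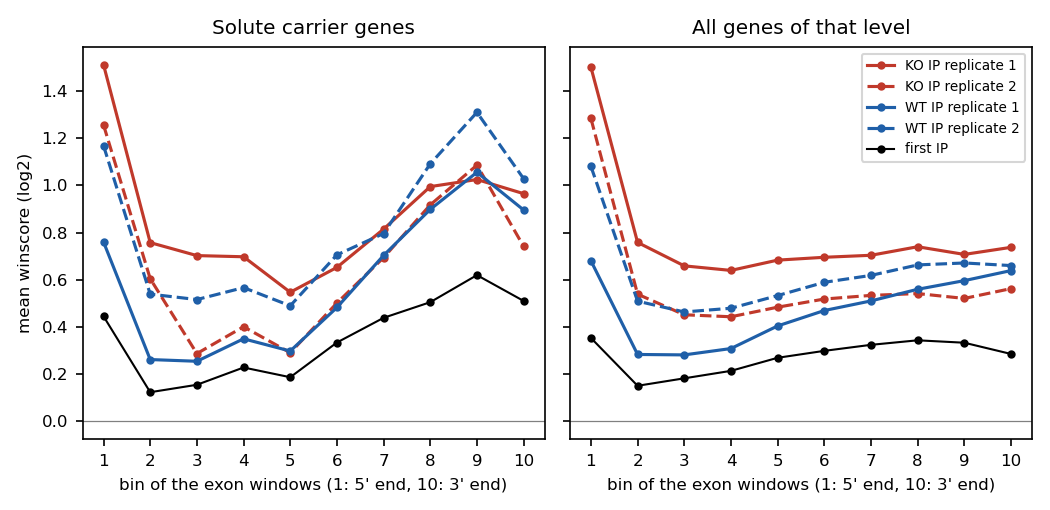
Mean winscore (log2) in each of 10 equal bins of the exon windows from the 5′ to the 3′ end, for the 86 solute carrier genes with a known strand on the left and for 7069 genes of that level on the right, with a line for each IP library (KO red, WT blue, first IP black). With bin 1 set aside, the carriers peak in bin 9 in all 5 libraries, at 1.02 and 1.09 in KO IPs and 1.06 and 1.31 in WT IPs, while the lines over all genes stay flatter.

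The genes with most regions were Slc12a7 with 5, all in its last exon, the sugar transporter family member Slc45a4, the amino acid transporter homologue Slc38a10 and Slc25a37 with 4 each, and 10 genes with 3, among them Slc16a1. The highest winscore in the first IP, 4.28, was that of windows 76 to 81 of Slc12a7, in the last of its 24 exons, with 4.32 and 5.97 in KO IPs and 5.18 and 5.57 in WT IPs. The KO and WT libraries overlapped there. Its relative Slc12a4 (4.22, last exon) followed, and there the winscore was 5.35 and 4.78 in KO IPs against 4.52 and 5.08 in WT IPs. Other strong regions lay in the zinc transporter Slc30a1 (4.16), the peptide and histidine transporter Slc15a4 (4.16), the amino acid transporter Slc38a7 (4.15), the acetyl-CoA transporter Slc33a1 (4.12), the zinc transporter Slc39a6 (4.11), Slc20a2 (4.01) and Slc1a5 (3.96).

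Genes that rose and genes that fell were found among carriers with and without a region. Of the 86 with a region 9 rose and 14 fell (median log2 change -0.0036), and of the 33 with none 4 rose and 6 fell (median -0.053). Over all genes tested, with or without a region, 13.0% rose and 13.6% fell. The difference between carriers with and without a region was not tested. Slc1a3, with 3 regions, rose and Slc12a7, with 5, fell, while Slc7a3 and Slc5a11 held 0 regions.

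The winscores of the carriers' regions overlapped between KO and WT IPs. The median over the 145 regions was 3.56 and 3.27 in KO IPs against 3.32 and 3.86 in WT IPs, so the KO libraries lay between the WT ones for 1 replicate and below both for the other. In limma 0 of 145 regions passed, as did 0 of 8488 regions of all genes (0.00%). With either KO library left out some regions passed, among the carriers and among all genes, but 1 library then stands for KO. The median difference was -0.22 without KO replicate 1 and -0.19 without KO replicate 2 (-0.16 and 0.064 over all regions). Before adjustment and with all libraries, 5 were higher and 14 lower in KO at p under 0.05 (3.45% and 9.66% of 145, against 3.16% and 4.95% of all regions). The winscore was lower in KO in 78 of 145 regions (53.8%, against 53.0%), and the median difference was -0.14 (-0.049 over all regions), but 0.20 without WT replicate 2 and -0.42 without WT replicate 1. Both KO IPs lay below both WT IPs in 35 regions (24.1%, against 21.7%) and above in 21 (14.5%, against 17.8%).

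**Figure D4:**
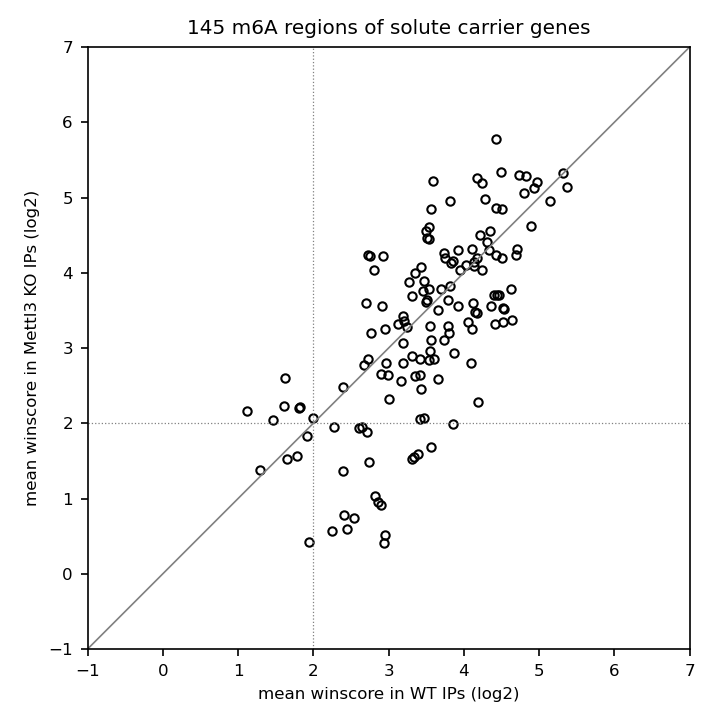
Mean winscore (log2) of each of the 145 regions in the 2 KO IPs, on the vertical axis, against that in the 2 WT IPs, on the horizontal axis, with the diagonal as a solid line and the winscore of 2 that defined regions as dotted lines. Points lie on both sides of the diagonal, with 78 of 145 below it.

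In both KO IPs 103 regions kept a winscore of 2 or more (71.0%, against 78.1% of all regions) and in both WT IPs 127 did (87.6%, against 88.7%). All 103 also reached it in both WT IPs. No carrier region stood at 2 or more in both WT IPs and under 1 in both KO IPs, against 34 of 8488 regions of all genes. The gene's median IP coverage, the denominator of the winscore, was 0 for 46.2% and 27.6% of the regions in KO IPs and for 0% and 23.4% in WT IPs. Its part in the winscores was not tested.

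The regions with the smallest p in limma show the spread. Windows 61 to 63 in the last exon of Slc9a8, a sodium and proton exchanger of the Golgi, had a winscore of -0.625 and 1.44 in KO IPs against 2.44 and 3.43 in WT IPs (difference -2.52 ± 0.818 SE, adjusted p = 0.582). Its IP coverage was 0 and 7.48 in KO libraries and 17.1 and 13.9 in WT libraries. Windows 16 to 18 in the last exon of the copper importer Slc31a1 had 2.45 and 2.11 in KO IPs against 3.46 and 4.92 in WT IPs (-1.91 ± 0.654, adjusted p = 0.582). The libraries of the genotypes stood apart in both regions, but neither passed.

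In the other direction, windows 8 to 13 in the last exon of the mitochondrial iron importer Slc25a28 had 5.82 and 4.61 in KO IPs against 3.50 and 3.68 in WT IPs (1.62 ± 0.601, limma adjusted p = 0.596). Windows 40 to 44 of Slc33a1, in its first exon, had 4.95 and 4.76 in KO IPs against 3.87 and 3.25 in WT IPs (1.29 ± 0.552, adjusted p = 0.605). Slc25a46, a protein of the outer mitochondrial membrane, and Slc41a1 each held another region with KO above WT. The remaining lower ones of small p lay in the nucleoside transporter Slc29a3, in Slc9a3r1, Slc15a4, Slc25a25, Slc10a7 and Slc30a7, with differences between -1.77 and -2.44.

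The ratio of IP to input coverage in a region, set against the library's median outside regions, does not use the gene median. It could be formed for 139 of the 145 regions, those whose input coverage averaged 1 or more, and 0 of them passed in limma, as did 0 of 8263 regions of all genes (0.00%). With either KO library left out some regions passed, among the carriers and among all genes, but 1 library then stands for KO. The median difference was -0.45 without KO replicate 1 and -0.50 without KO replicate 2 (-0.37 and -0.49 over all regions). The median log2 ratio was 3.33 and 3.33 in KO IPs and 3.70 and 3.84 in WT IPs, a median difference of -0.49 (-0.45 over all regions). It was lower in KO in 108 of 139 regions (77.7%, against 78.6%). Both KO libraries were below both WT libraries in 67 regions (48.2%, against 47.9%) and above in 8 (5.76%, against 7.07%). At an unadjusted p under 0.05, 23 regions were lower (16.5%, against 17.0%) and 1 was higher (0.719%, against 1.48%).

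**Figure D5:**
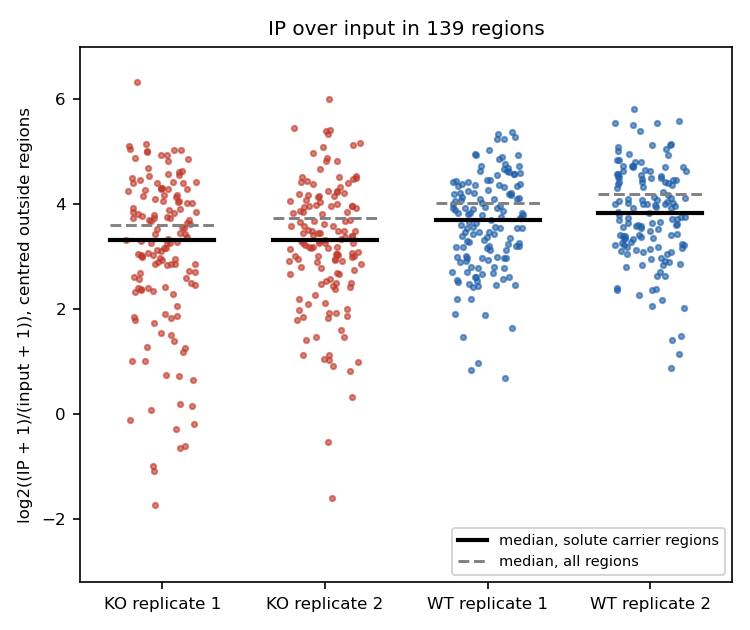
Log2 ratio of IP to input coverage in each of 139 regions, centred on the library's median outside regions, with KO libraries left of WT libraries. Black lines give the medians of the carriers, 3.33 and 3.33 in KO and 3.70 and 3.84 in WT, and dashed grey lines those of all 8263 regions.

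Among the regions with the smallest p for a lower ratio were those of Slc16a6, of the monocarboxylate transporter family, of Slc10a7 and of the zinc transporter Slc30a2, although none passed. Windows 60 to 65 of Slc16a6 had a log2 ratio of 3.33 and 3.97 in KO libraries against 5.24 and 4.95 in WT libraries (difference -1.44 ± 0.335 SE, limma adjusted p = 0.230). Windows 41 to 45 in the last exon of Slc10a7 had 3.64 and 3.42 in KO libraries against 4.74 and 4.72 in WT libraries (-1.20 ± 0.291, adjusted p = 0.230). Windows 31 to 40 in the last exon of Slc30a2 had 2.40 and 2.10 in KO libraries against 4.03 and 3.73 in WT libraries (-1.63 ± 0.415, adjusted p = 0.230). In all 3 the KO libraries lay below the WT libraries, and the 2 libraries of a genotype lay closer to each other than to the other genotype.

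The folate carrier Slc46a1 (-1.51), Slc29a3 (-2.64), Slc31a1 (-1.70), a second region of Slc16a6 (-1.91) and windows 40 to 43 of Slc1a3 (-1.23) were the other regions of smallest p with a lower ratio, and in each both KO libraries were below both WT libraries. Windows 67 to 68 of Slc25a37 had the smallest p with a higher ratio, at 4.03 and 5.18 in KO libraries against 3.58 and 3.41 in WT libraries (1.11 ± 0.442, limma adjusted p = 0.266). By substrate, the ratio was lower in KO in 24 of 28 regions of amino acid carriers, 18 of 20 of inorganic ion carriers and 8 of 10 of sugar carriers. It was lower in 10 of 11 each of monocarboxylate and of nucleoside carriers, 15 of 24 of metal carriers and 15 of 23 of mitochondrial carriers. Lipid carriers had 3 of 6, nucleotide sugar carriers 2 of 3 and genes that are not carriers 3 of 3. Over all regions the share was 78.6%, and differences between classes were not tested.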

How the data were processed

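Per the labels' protocols, libraries were made with a dUTP strand-specific method; per the submitters' processing notes, reads were aligned with TopHat 1.1.3 to mm9. The deposited window tables hold, per the file headers, input and IP coverage (a signal scaled by the authors with 1 unstated factor per library) and its gene medians for 1510223 exon windows, and the authors' log2 winscore, recomputed here to within 5.0e-14. The WT columns of the deposited RPKM table served to select genes and to give their abundance. Its columns labelled KO input correlated with the KO IP tracks (r = 0.958 and 0.974) more than with the KO input tracks (0.697 and 0.712, 11306 genes). Levels compared between KO and WT were therefore taken from window coverage, and the RPKM columns were compared only as an alternative. The sources used here do not give the window width, the use of strand in counting or the handling of reads with several positions.

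KO was compared with WT by limma 3.58.1 in R 4.3.3 (lmFit, eBayes with trend, no covariates, Benjamini-Hochberg, threshold 0.05). Levels were log2(mean input coverage + 1) for genes that reached 1 in 2 or more of the 4 inputs. Regions came from genes with a mean WT RPKM of at least 2. Ratios were log2((IP + 1)/(input + 1)) minus the library's median over 4997 genes with input of at least 5, in windows with a first-IP winscore under 1. Each fit was tested on simulated data, in which 49 of 50 level changes of 1 on the log2 scale were recovered; for region winscores 0 of 50 were recovered at 2 and 19 of 50 at 4, and for ratios 18 of 50 at 2. Strands, overlaps and promoter sequences came from RefSeq tables of GRCm38.p6 by symbol: 119 of 119 genes matched, 1 by an older symbol. Region sequences are not shown, since no mm9 genome was used here.

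The members and lists were chosen with earlier results of these data known. Named are Mettl3, the 12 largest rises and falls past the test, up to 4 genes per class with the smallest p, and the strongest regions. So are the 5 genes with most regions, where the higher mean WT RPKM broke the tie at 3. Up to 8 regions of smallest p in each direction and a fixed list of well-known carriers were also named. The values of a named item are given in full only where a statement rests on them. Alternatives covered the filters, pseudocount, scaling, region definition, each library left out and the replicate number as a block. Some items that these rules name are not reported here.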

Additional observations from a re-analysis of the deposited data

How the results depend on the processing

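In simulated data 0 of 50 region changes of 1 on the log2 scale were recovered in either measure. Few simulated regions changed, all upward, while most regions of the data had a lower ratio in KO. The simulation therefore does not give the smallest change that these IPs can call. Of the 13 rises and 20 falls in level, 17 were still tested at a coverage minimum of 5 and all 17 kept their call, in a total of 8 rises and 12 falls there; no filter on low coverage gave 3 and 5, and quantile normalization gave 15 and 20. Leaving out 1 library gave 4 to 10 rises and 8 to 23 falls: 9 and 23 without KO replicate 1, 10 and 13 without KO replicate 2, 4 and 12 without WT replicate 1, and 9 and 8 without WT replicate 2. For regions, leaving out 1 library gave 0 to 25 winscore calls (8 without KO replicate 1, 25 without KO replicate 2) and 0 to 30 ratio calls (14 without KO replicate 1, 30 without KO replicate 2), against 0 with all libraries; the lone KO library is then assumed to vary like the WT libraries. Regions of all genes also passed with either KO library left out. Most calls were lower in KO among the carriers and among all genes, so this direction is not particular to the carriers. Without KO replicate 2 the median winscore difference was -0.19 for the carriers and 0.064 over all regions. The median ratio difference was then -0.50 for the carriers and -0.49 over all regions. The median winscore difference was -0.42 without WT replicate 1 and 0.20 without WT replicate 2, while that of the ratio stayed between -0.59 and -0.37. The cause of these shifts was not tested. Regions with a winscore of at least 3 were held by 57 genes (47.9%, against 35.6% of all), and of 65 genes with at least 5 RPKM 44 held a region (67.7%, against 51.2%). With regions drawn from the mean of the WT IPs, an alternative chosen after seeing the data, 113 genes held a region (95.0%, against 84.5%) and 0 regions passed.

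The deposited RPKM columns gave 43 rises and 24 falls among the carriers, against 5011 and 2954 among 12245 genes. The median change over all genes was 0.28 there, against -0.0048 from window coverage. These columns reversed 18 named genes: Slc12a7 1.11, Slc25a30 0.53, Slc25a37 1.54, Slc25a5 -1.10, Slc2a1 2.37, Slc2a8 0.38, Slc30a9 -1.12, Slc31a2 1.25, Slc33a1 1.16, Slc37a3 0.68, Slc38a10 1.24, Slc3a2 -0.43, Slc41a1 0.22, Slc45a4 1.68, Slc6a15 -0.38, Slc6a8 0.16, Slc7a1 0.44 and Slc7a3 -0.99 (log2, KO minus WT). Those columns follow the KO IP tracks.

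Deviations of samples with the same replicate number were close to uncorrelated (-0.027 for levels, 0.030 for winscores and 0.017 for ratios). The labels do not say whether equal numbers mark a shared batch, and correlations from 2 libraries per genotype cannot decide it. The fit with the replicate number as a block gave 10 rises, 18 falls and 0 carrier regions by either measure. Over all 11211 genes that fit gave 1337 rises and 1400 falls. Among the 8488 regions of all genes, its winscore calls were 9 higher and 33 lower in KO, against 0 without the block. For ratios it called 0 of 8263 regions.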
